A study of Mus musculus with 6 samples.

Results

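The 4 WT libraries of mouse small intestinal organoids carry replicate numbers 1 and 2, and what is described is the difference between these numbers rather than between treatments. The libraries labelled replicate 1 (-EIPA and +EIPA) are called experiment 1, and those labelled replicate 2 (-EIPA and +EIPA) experiment 2, so 4 of the 6 libraries of the series were used, with 2 libraries per experiment. All 4 hold WT organoids, from stocks that the methods trace to adult mice aged 10 weeks, embedded in Matrigel, fed ENR medium (EGF, Noggin and R-spondin1) and collected on day 3. The -EIPA libraries received the vehicle DMSO, and the +EIPA libraries 5 µM EIPA, an inhibitor of the sodium-proton exchanger NHE1. Cells were sorted by FACS as live, and UMIs (unique molecular identifiers, 1 per captured RNA molecule) were counted per gene with a 3' single-cell kit. The labels give the replicate numbers alone, which the study treats as independent experiments. Whether the -EIPA and +EIPA libraries of 1 number shared a preparation, and whether the numbers also differed in sort, chip or sequencing run, is not given in the sources used here. Preparation and handling therefore cannot be told apart.

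Organoids grow from crypts, and the epithelium they form renews itself from Lgr5+ intestinal stem cells (ISCs) at the crypt base. ISCs give rise to proliferating progenitors, which become absorptive enterocytes or secretory Paneth, Goblet, enteroendocrine (EEC) and tuft cells. After injury the epithelium can enter a regenerative state marked by fetal genes such as Clu, Ly6a and the annexins.

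Of 87172 barcodes, 58273 had 1000 or more genes and under 20% of UMIs in mitochondrially encoded (mt-) genes. These were 12606 and 18211 cells of -EIPA in experiments 1 and 2, and 13194 and 14262 cells of +EIPA, with median depths of 11477.5 to 14467 UMIs and 161670015 to 239368573 UMIs per library. The libraries of experiment 1 lost more barcodes to the mitochondrial limit, 10.1% without and 6.29% with EIPA, than those of experiment 2, 3.57% and 2.63%. They also kept a smaller share of barcodes, 57.0% and 64.1% against 71.5% and 75.04%. Pairs of libraries shared 43 to 69 kept barcodes, at most 0.523% of a library. Defining markers of cells outside the epithelium were near the limit of detection. Of 10 immune markers 9 stayed under 1 CPM in every library and their summed level was 3.38 to 3.86 CPM (counts scaled to the same total in every library), 9 of 10 fibroblast markers also stayed under 1 CPM, and the endothelial markers Cdh5 and Emcn were at 0 throughout. Xist, which silences an X chromosome in female cells, was at 794 and 861 CPM without EIPA and at 729 and 734 CPM with EIPA, and did not pass the test below. In the list of sex-linked genes 1 member passed, a gene that shares its 3' end with another gene or overlaps another by the rule below.

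To ask which genes separated the experiments in both treatments, counts were summed per library over all kept cells and fitted with a term for EIPA and a term for the experiment (edgeR's quasi-likelihood test, Benjamini-Hochberg adjusted p under 0.05, n = 2 libraries per experiment). All log2 fold changes below are experiment 2 over experiment 1, with their SE, and paired values are given as experiment 1 then experiment 2. Of 15890 genes tested, 1288 passed (8.11%), 776 of them higher in experiment 2 (4.88%) and 512 lower (3.22%). Scaling by library size alone called 1707 genes and turned the split to 734 higher and 973 lower. The fit has 1 residual degree of freedom, so small adjusted p-values rest on a spread shared across genes. A fit on 3 libraries, which can hold the experiment only, called 0 genes without -EIPA experiment 1 and 0 without +EIPA experiment 1, against 76 without -EIPA experiment 2 and 75 without +EIPA experiment 2. In a sum over all cells, fewer cells of a type and less RNA per cell cannot be told apart.

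The difference between the experiments was of like size to that between treatments. Of the sum of squares over all genes tested (log2 of CPM + 1), the experiment took 47.3%, EIPA 45.4% and their interaction 7.29%, a split that is a description with 1 library in each position. Over the 1364 genes with a mean of 100 CPM or more the order turned, with 43.5% for the experiment and 49.7% for EIPA. Measured separately in the -EIPA and in the +EIPA libraries, the log2 ratios of experiment 2 to 1 correlated at a Pearson's r of 0.76 across 7379 genes with a mean of 10 CPM or more. Within the classes of cells described below, r ran from 0.20 in tuft-like and 0.52 in EEC-like to 0.86 in proliferating cells. These points are genes and not replicates, and no p is attached to them.

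**Figure D1:**
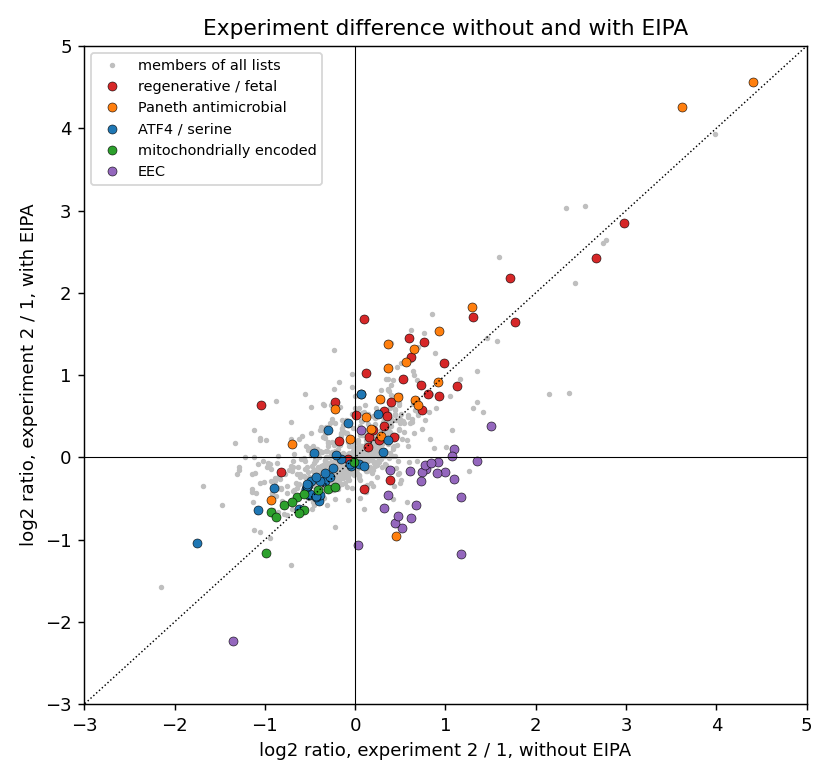
Each point is a gene of the lists described in the text. Its log2 ratio of CPM, experiment 2 over 1, is on the x axis for the -EIPA libraries and on the y axis for the +EIPA libraries, and the dotted line marks equal ratios. The regenerative gene Clu (2.98 and 2.84) lies far up along the line, while most members of its list lie closer to the origin. Mitochondrially encoded genes lie below 0 on both axes, whereas most EEC genes are above 0 on the x axis and below 0 on the y axis.

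Genes of the regenerative, fetal-like state were higher in experiment 2, with and without EIPA. Of 34 members tested (39 were listed), 21 were higher (61.8%, against 4.88% of all genes) and 0 lower, with a median log2 fold change of 0.68, against 0.00 over all genes. In each of the 4 fits without 1 library, and in the fit without the EIPA term, 0 members were called. Clu, a secreted chaperone that marks revival stem cells (chr14:65968483-65981547, GRCm38), had 5.55 and 44.3 CPM in the -EIPA and 16.0 and 116 CPM in the +EIPA libraries. Both libraries of experiment 2 thus lay above both of experiment 1, and the log2 fold change was 2.96 ± 0.06 (adjusted p = 0.00015). Anxa1, an annexin that tempers inflammation, had 2.48 and 16.3 CPM without and 10.8 and 58.0 CPM with EIPA (2.60 ± 0.08, adjusted p = 0.00051). S100a6, a calcium-binding protein, was far more abundant, at 266 and 908 CPM without and 617 and 1931 CPM with EIPA (1.75 ± 0.05, adjusted p = 0.00056).

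Further members changed by less. Ly6a, which encodes the fetal surface marker Sca-1, had 5.73 and 11.5 CPM in the -EIPA and 23.4 and 51.9 CPM in the +EIPA libraries (1.12 ± 0.07, adjusted p = 0.0034). For Ly6a the +EIPA library of experiment 1 lay above the -EIPA library of experiment 2, so the groups overlap unless EIPA is taken into account. F3, the tissue factor that starts coagulation, had 5.45 and 9.32 CPM without and 10.8 and 28.7 CPM with EIPA (1.15 ± 0.16). Anxa3, Anxa5, Anxa8, Ly6d, Ly6e, S100a11, Plaur, Krt7 and Krt18 were also among those called, the keratins by small steps (0.39 and 0.38). Members that did not pass included Areg, an EGF-family ligand, at 52.7 and 53.1 CPM without and 115 and 164 CPM with EIPA, Sprr1a, a cornified envelope protein of injured epithelium, at 8.08 and 6.89 and at 38.5 and 61.6 CPM, and Anxa2, at 287 and 253 and at 387 and 445 CPM. The list was thus not uniform, and Areg and Sprr1a separated the treatments more than the experiments.

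Clu UMIs were counted in all clusters, at levels that for most were near those of barcodes with few genes. Cells were clustered without the genes that differed between experiments, and Clu had higher CPM in experiment 2 in 24 of 24 clusters in either treatment. Cluster 14 stayed unnamed and was led by Sprr1a, Lgals3, Tm4sf4, Anxa1 and Clu, and its 1227 cells carried 41.1% of the Clu UMIs of the 4 libraries together. By library they carried 54.29% and 24.75% without and 48.26% and 46.35% with EIPA. The cluster's share of cells was 0.86% and 0.75% without EIPA and 2.93% and 4.17% with EIPA. Within it Clu was at 326 and 1031 CPM without and 231 and 1057 CPM with EIPA. With this cluster left out, Clu still had 2.56 and 33.7 CPM without and 8.58 and 65.5 CPM with EIPA, and the list's median log2 ratio was 0.45 without and 0.46 with EIPA. With all clusters weighted alike it was 0.26 and 0.46, against 0.39 and 0.67 as measured. In the fit per class, 25 of 32 members tested were higher in proliferating cells, where 13.0% of all genes were higher, and 17 of 27 in ISC-like cells, against 7.44%. The counts were 16 of 31 in Goblet/Paneth-like cells (5.4% of all genes), 13 of 28 in EEC-like (3.21%), 11 of 31 in enterocyte-like (1.99%) and 2 of 21 in tuft-like cells (0.719%). The barcodes removed for having few genes showed the same order for Clu, at 4.73 and 27.3 CPM without and 12.02 and 51.88 CPM with EIPA. RNA outside cells was not measured, and its part in the values of single classes was not tested.

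**Figure D2:**
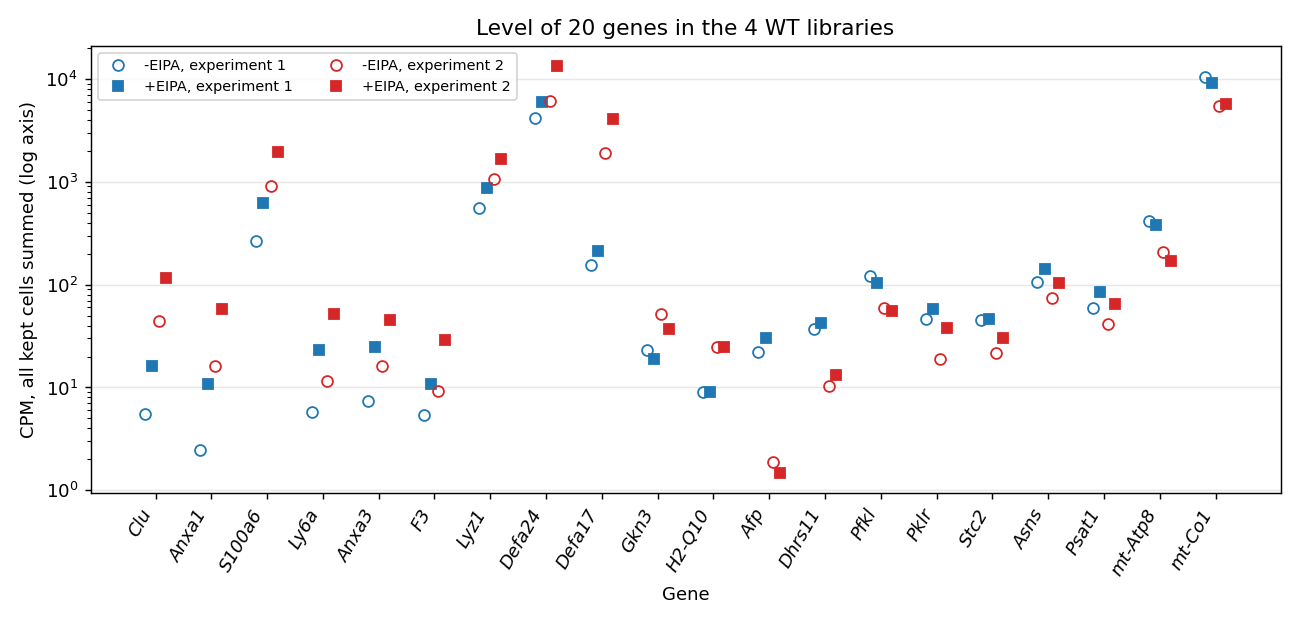
CPM over all kept cells (log axis) is shown for 20 genes in the 4 WT libraries. Blue marks experiment 1 and red experiment 2, with open circles for -EIPA and filled squares for +EIPA. From Clu to F3 the red symbols lie above the blue ones of the same shape, and from Afp to mt-Co1 below them.

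Paneth cells make antimicrobial peptides and niche signals at the crypt base, and some of their products were higher in experiment 2. Of 22 members tested (27 listed), 11 were higher (50%, against 4.88% of all genes), 10 did not pass and 1, Gm14851, a defensin-like gene, was lower. The median log2 fold change was 0.68. By the rule on shared sequence given below, 3 of the 12 called members share their 3' end with another gene or overlap one. Lyz1, the Paneth lysozyme, had 559 and 1053 CPM in the -EIPA and 879 and 1664 CPM in the +EIPA libraries (0.96 ± 0.05, adjusted p = 0.0026). Defa24, an abundant alpha-defensin that kills bacteria in the crypt lumen, had 4157 and 6161 CPM without and 5954 and 13258 CPM with EIPA (0.90 ± 0.15, adjusted p = 0.039). Itln1, a lectin that binds microbial sugars, had 1491 and 2078 and then 1764 and 2924 CPM (0.65 ± 0.08). Ang4 and Mmp7, a microbicidal ribonuclease and the protease that activates defensins, did not pass the test.

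The step was smaller once the mix of cells was held fixed. With the clusters weighted alike in every library, the median ratio over the Paneth list was 0.00 without and 0.28 with EIPA on the log2 scale, against 0.41 and 0.72 as measured. Within Goblet/Paneth-like cells, 12 of 22 members were higher and 3 lower, where 5.4% of all genes were higher and 4.06% lower. The make-up of this class shifted too. Of its Paneth clusters, cluster 13 held 1.30% and 2.00% of the -EIPA and 1.95% and 3.62% of the +EIPA cells. The larger cluster 8 held 4.51% and 4.82% and then 4.63% and 6.93%. Inside cluster 13, Defa24 was at 127400 and 98690 CPM without EIPA and at 111000 and 141600 CPM with EIPA, and Defa30 at 32180 and 22210 and then 26970 and 36690 CPM, so neither kept 1 direction there. AY761184, a defensin-related gene, was at 4830 and 3892 and then 4697 and 3571 CPM in these cells. Inside cluster 8, Defa24 was higher in experiment 2 in both treatments, at 56480 and 64800 and then 67200 and 93030 CPM. Defa30 was too, at 487 and 536 and then 717 and 1306 CPM, while AY761184 was lower, at 1227 and 984.5 and then 1699 and 1056 CPM. These values inside single clusters have no test. Lyz1 was at 12040 and 12910 and then 12820 and 13850 CPM inside cluster 13, and at 7712 and 11470 and then 10510 and 13150 CPM inside cluster 8. Over the whole Goblet/Paneth-like class it was at 5055 and 7323 and then 7154 and 9305 CPM (0.55 ± 0.10), and Itln1 did not pass. Wnt3, the Wnt ligand that Paneth cells supply, was at 52.4 and 48.2 and at 54.4 and 53.3 CPM in this class (0.02 ± 0.09) and did not pass either.

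A few defensin genes differed by far more than Lyz1. Their coding sequences are nearly the same, which matters because reads are counted only where they can be placed. Shown are the last 90 coding bases of 6 of them, 5′ to 3′ on the + strand of GRCm38 chromosome 8, from the GENCODE transcripts, with capitals at bases that differ from Defa17 (chr8:21656552-21656641).
Defa17: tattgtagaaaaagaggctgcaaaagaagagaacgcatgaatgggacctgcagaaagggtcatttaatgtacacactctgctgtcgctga
Defa3: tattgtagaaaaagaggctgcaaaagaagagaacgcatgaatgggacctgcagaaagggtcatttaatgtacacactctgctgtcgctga
Defa23: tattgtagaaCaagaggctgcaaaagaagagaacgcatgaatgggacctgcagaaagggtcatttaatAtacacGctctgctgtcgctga
Defa30: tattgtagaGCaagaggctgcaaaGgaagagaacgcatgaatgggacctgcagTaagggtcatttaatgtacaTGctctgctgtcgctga
Defa24: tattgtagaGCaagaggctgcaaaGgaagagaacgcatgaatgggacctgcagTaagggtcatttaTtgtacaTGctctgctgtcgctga
Defa27: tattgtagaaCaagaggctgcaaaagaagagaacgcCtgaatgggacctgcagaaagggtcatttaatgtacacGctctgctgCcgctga
The coding sequence of Defa3 (chr8:21288194-21288283 for the bases shown) was identical to that of Defa17 over 282 bases, while Defa23, Defa30, Defa24 and Defa27 differed from it at 6, 8, 12 and 18 bases.

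Single defensins differed between the experiments in both directions. Defa17 had 155 and 1896 CPM in the -EIPA and 214 and 4084 CPM in the +EIPA libraries (3.98 ± 0.18, adjusted p = 0.0017), and its identical copy Defa3 had 18.5 and 80.8 and then 28.8 and 188 CPM (2.46 ± 0.16). Defa20 had 0.36 and 9.59 CPM without and 0.91 and 23.7 CPM with EIPA (4.77 ± 0.08). Defa27 went the other way, from 5.68 to 0.10 CPM without and from 12.7 to 0.33 CPM with EIPA (-5.41 ± 0.16, adjusted p = 0.00049), and from 57.1 to 0.76 CPM and from 110 to 1.95 CPM within Goblet/Paneth-like cells. For each of these genes, both libraries of experiment 2 thus lay on the same side of both libraries of experiment 1. Defa30, at 434 and 559 and at 643 and 1676 CPM, did not pass. Defa17 was higher by much the same fold in cells that are not Paneth cells, such as proliferating cells (31.5 and 317 CPM without, 44.2 and 566 CPM with EIPA), and in the barcodes removed for few genes (177 and 2348, and 239 and 4727 CPM). By the rule on shared sequence given below, Defa17, Defa3 and Defa20 share their 3' end with another gene. Their values are therefore uncertain one by one. Defa27 is under that limit of 50%, with 15.6% of its windows shared. How reads were divided between the paralogs was not tested.

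Sequence shared with another gene was most common among the largest increases. A gene was counted as sharing its 3' end where at least 50% of the 91-base windows (the length of the cDNA read) in the last 400 bases of its transcripts also occur in another gene. That held for 305 of 15890 genes tested (1.92%), for 62 of the 205 genes higher with a log2 fold change of 1 or more (30.2%), for 12 of the 571 with smaller increases (2.10%) and for 2 of the 183 lower by as much (1.09%). Among all 512 lower genes it held for 16 (3.12%), and with windows of 50 bases for 10 of the 183 (5.46%), against 2.57% of all genes tested. Of the 15 named genes that were higher, 11 share their 3' end or overlap exons of another gene, against 3 of the 15 that were lower.

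The shared genes included copies of ribosomal and housekeeping genes that were far higher in experiment 2 than their parents' steps. Nutf2-ps1, a processed copy of the nuclear transport gene Nutf2, had 1.81 and 25.04 CPM without and 1.44 and 22.1 CPM with EIPA, while Nutf2 itself had 3.03 and 3.23 and 2.67 and 2.58 CPM. Rps27rt had 37.7 and 165 and 39.7 and 191 CPM beside 1984 and 2521 and 2098 and 2865 CPM for Rps27. Rpl10-ps3 had 19.6 and 109 and 19.1 and 105 CPM beside 1840 and 2026 and 1774 and 1800 CPM for Rpl10, which did not pass. The methods give 1 read length, reference and pipeline for all libraries, while the strain of the stocks is not given in the sources used here. The coding sequences of copy and parent are identical in these 3 pairs (384, 255 and 645 bases). In another pair, Rpl9-ps6 (chr19:32466257-32466316, - strand, for the 60 bases shown) and Rpl9, 1 of 579 coding bases differs, in capitals here.
Rpl9-ps6: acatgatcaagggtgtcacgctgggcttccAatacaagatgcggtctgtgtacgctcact
Rpl9: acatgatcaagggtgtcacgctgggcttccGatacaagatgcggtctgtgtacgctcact
Rpl9-ps6 had 28.2 and 131 CPM without and 28.8 and 124 CPM with EIPA, and Rpl9 2846 and 3624 and 2845 and 3348 CPM. Bloc1s1, Rnaset2a and Rnaset2b, which share sequence or overlap a neighbour, were also higher, with Bloc1s1 at 4.89 and 35.7 and at 5.06 and 34.0 CPM. For 53 of the 62 shared genes with a log2 fold change of 1 or more, the CRISPR-Cas9 library without Dox (a clone line made from WT organoids with lentivirus) lay closer to experiment 2. The same held for 56 of the 123 such genes without shared 3' ends or exon overlap, and for 148 of the 183 genes lower by as much. Without genes that share sequence or overlap exons, 1088 genes were called, 620 higher and 468 lower.

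Histone genes of the replication-dependent clusters fell under the same limit. Of 62 tested, 17 were higher (27.4%, against 4.88% of all genes) and 0 lower, but 13 of these 17 share their 3' end or overlap another gene. The summed level over the list went from 1701 to 1554 CPM without and from 1383 to 1764 CPM with EIPA. S-phase genes, which rise with DNA replication, and G2/M genes each had 1 member called over all cells (of 27 and of 28), beside 8.11% of all genes.

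Many genes that supply serine, asparagine and other amino acids under the transcription factor ATF4 were lower in experiment 2. Of 35 members tested, 16 were lower (45.7%, against 3.22% of all genes), 18 did not pass and 1, Cebpb, was higher, with a median of -0.29, and 25 members had lower CPM in experiment 2 in both treatments. Asns, asparagine synthetase, had 106 and 74.6 CPM in the -EIPA and 142 and 104 CPM in the +EIPA libraries (-0.44 ± 0.05, adjusted p = 0.021). Phgdh, the first enzyme of serine synthesis, had 124.9 and 94.7 and then 158 and 109 CPM (-0.42 ± 0.05). Its partners in that pathway, Psat1 and Psph, and the mitochondrial one-carbon enzymes Shmt2 and Mthfd2 were lower, by -0.38 to -0.43 on the log2 scale. These were small and even steps, and for Phgdh and Asns the -EIPA library of experiment 1 and the +EIPA library of experiment 2 were close.

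Larger steps were seen for a few ATF4 targets. Atf5 had 44.7 and 29.0 and then 70.4 and 45.5 CPM (-0.59 ± 0.05, adjusted p = 0.0090), and Stc2, a secreted glycoprotein hormone, 45.3 and 21.5 and then 46.8 and 29.9 CPM (-0.82 ± 0.12). Aldh1l2 was scarce, at 1.52 and 0.38 and 5.10 and 2.43 CPM (-1.41 ± 0.25). The mRNA of Atf4 itself did not pass, at 148 and 142 and 136 and 129 CPM. By class, 23 of 35 members were lower and 2 higher in proliferating cells, where 10.8% of all genes were lower, and 10 of 35 were lower and 4 higher in Goblet/Paneth-like cells, against 4.06% lower. ISC-like cells were nearly balanced, with 6 of 33 lower (5.44% of all genes) and 4 higher (7.44%). The lower counts were 6 of 35 in enterocyte-like cells (1.12% of all genes), 4 of 31 in tuft-like (0.935%) and 3 of 35 in EEC-like cells (2.38%), with 1 member higher in EEC-like and 0 in the other 2 classes. With the clusters weighted alike, the list's median ratio was -0.37 without and -0.28 with EIPA, close to the measured -0.39 and -0.28.

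Some glycolytic and hypoxia-responsive genes were lower. Of 27 tested, 6 were lower (22.2%, against 3.22% of all genes), 0 were higher and 21 did not pass, with a median of -0.33. The list's median log2 ratio was -0.54 without but -0.16 with EIPA, and -0.52 and -0.12 with the clusters weighted alike. Pfkl, the liver-type phosphofructokinase that commits glucose to glycolysis, had 122 and 59.1 CPM in the -EIPA and 105 and 56.0 CPM in the +EIPA libraries (-0.94 ± 0.06, adjusted p = 0.0056), and was lower in 24 of 24 clusters in either treatment. Pgk1 had 945 and 591 and then 929 and 706 CPM (-0.49 ± 0.09), and Eno1, Tpi1, Pdk1 and Car9 were called at -0.37 to -0.51. Gpi1, at 544 and 349 and then 534 and 422 CPM, and Ldha, at 2017 and 1435 and then 2032 and 1708 CPM, did not pass. The same list had 13 lower and 2 higher members in proliferating cells and 12 lower and 1 higher in ISC-like cells, of 27 in each and beside the 10.8% and 5.44% of all genes that were lower there, Pfkl among the lower ones in every class.

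Of 24 cholesterol genes, 22 had lower CPM in experiment 2 in both treatments. Of the 24, 4 passed (16.7%), and the list's median was -0.14. Among all genes 8.11% passed in either direction and 3.22% as lower. Dhcr7, the last step of synthesis, had 48.9 and 34.5 and then 40.9 and 29.1 CPM (-0.45 ± 0.05). Mvd, an earlier enzyme of the pathway, was also among those called, at 93.8 and 68.0 and then 70.8 and 55.8 CPM (-0.36 ± 0.06). Of the fatty acid genes 3 of 26 were lower (11.5%, against 3.22% of all genes), namely Fasn, Acadvl and Acaa2, at -0.28 to -0.31.

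Transcripts of the mitochondrial genome were lower in the kept cells. All 13 had lower CPM in experiment 2 in both treatments and 11 passed (84.6%, against 3.22% of all genes lower, median -0.56). Their summed level went from 57220 to 39300 CPM without and from 52300 to 37580 CPM with EIPA. mt-Co1, a subunit of cytochrome c oxidase, had 10366 and 5415 and then 9057 and 5713 CPM (-0.76 ± 0.09, adjusted p = 0.021), and mt-Atp8 415 and 209 and then 381 and 169 CPM (-1.04 ± 0.06). mt-Nd4, at 3758 and 3715 and 3689 and 3551 CPM, and mt-Cytb did not pass, so the step was uneven across the set. Gm42418, which overlaps a ribosomal RNA locus, was lower as well, at 5599 and 2706 and 5034 and 3259 CPM. The barcodes removed for few genes showed this order without EIPA only. There mt-Co1 was at 54220 and 18860 CPM without but 37120 and 46190 CPM with EIPA, and mt-Atp8, mt-Nd3 and Gm42418 were also higher in experiment 2 with EIPA. Of the 11 called transcripts 9 share their 3' end with another annotated gene or overlap one, and the limit on cells was itself set on these transcripts. The larger share of barcodes over that limit in experiment 1, given above, moved with these values, and its part in them was not tested.

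**Figure D3:**
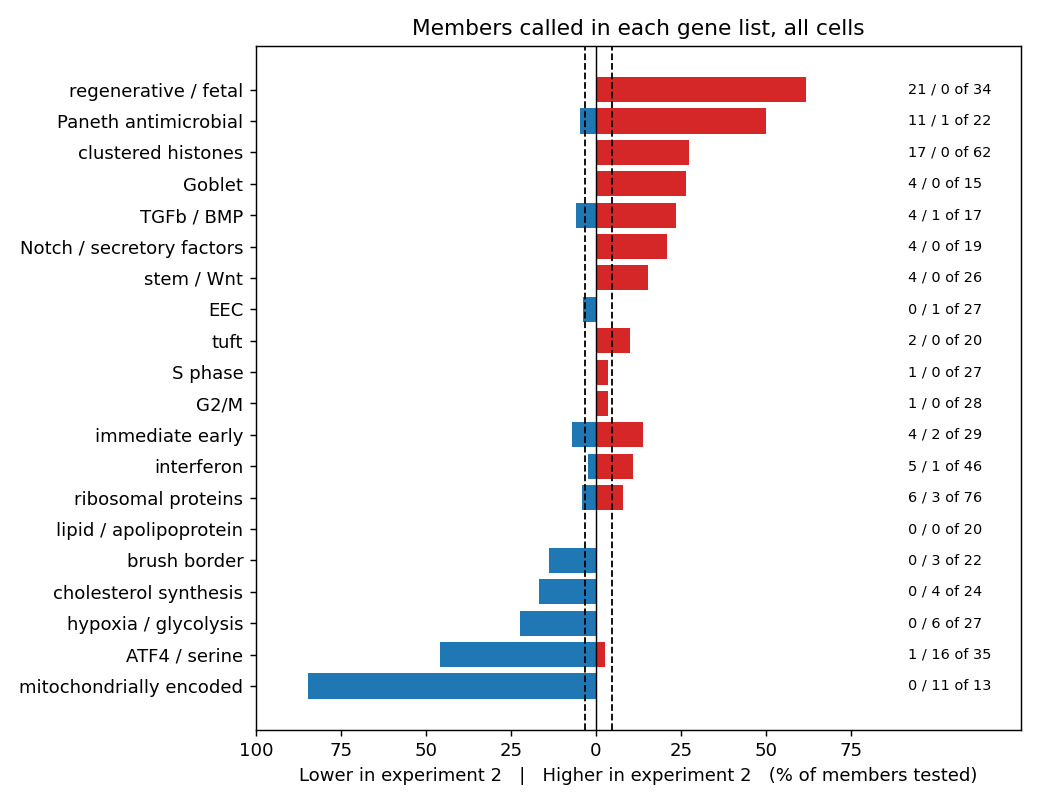
Bars give the percent of tested members of each gene list that were higher (red, right) or lower (blue, left) in experiment 2 over all cells, with the counts at the right edge as higher / lower of tested. Dashed lines mark the 4.88% and 3.22% of all genes called in each direction. The regenerative (21 of 34) and Paneth (11 of 22) lists stand out to the right, and the mitochondrially encoded (11 of 13) and ATF4 (16 of 35) lists to the left.

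The stem cell genes differed less. Of 26 stem and Wnt genes tested, 4 were higher (15.4%, against 4.88% of all genes) and 0 lower. Lgr5 did not pass, at 59.1 and 58.3 CPM without and 51.6 and 47.5 CPM with EIPA. Gkn3, a gastrokine found in crypt-base cells, had 22.97 and 51.3 and then 18.9 and 36.8 CPM (1.10 ± 0.06, adjusted p = 0.0028). Sox9, a transcription factor of the crypt base, had 86.5 and 115 and then 86.4 and 105 CPM (0.39 ± 0.05), and Lgr4 and Wnt3 were the other members called. Of 19 Notch and secretory factors 4 were higher (21.1%, against 4.88% of all genes), led by Gfi1 (0.72 ± 0.13) and Spdef (0.64 ± 0.09). Atoh1, the factor that commits cells to the secretory fate, was called too, at 8.50 and 11.2 and then 8.76 and 14.8 CPM (0.63 ± 0.11). The Notch ligand Dll1 was the remaining one. In the TGFβ/BMP list Bambi, Id1, Skil and Id2 were higher and Bmp7 lower, of 17 tested, which makes 23.5% higher against 4.88% of all genes.

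Within ISC-like cells 1455 of 11297 genes were called (12.9%), among them S-phase genes that were lower and immediate early genes that were higher in experiment 2. DESeq2 called 223 genes in this class, the fit without the EIPA term 348, and fits without 1 library 71 to 657. Of 27 S-phase genes 11 were lower and 0 higher, against 5.44% lower among all genes, and these included 6 subunits of the MCM helicase that opens DNA for replication. Mcm3 had 117 and 77.2 CPM without and 87.3 and 80.3 CPM with EIPA (-0.40 ± 0.08), and Mcm5 63.0 and 48.4 and then 66.1 and 46.9 CPM (-0.41 ± 0.08). Of 26 immediate early genes, which respond within minutes to growth factors and stress, 12 were higher and 1 lower, against 7.44% of all genes higher. Fos had 288 and 405 and then 122 and 197 CPM (0.58 ± 0.06) and Junb 63.2 and 94.9 and then 59.1 and 73.4 CPM (0.50 ± 0.08). Atf3 was called higher but only the -EIPA libraries showed it, at 54.4 and 98.5 CPM, against 11.4 and 8.15 CPM with EIPA. Lgr5 (202 and 198, 178 and 190 CPM) and Olfm4 did not pass in these cells.

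In Goblet/Paneth-like cells 1190 of 12581 genes were called (9.46%), and far fewer with DESeq2 or without the EIPA term, as given at the end. The immediate early list ran the other way there, with 7 lower and 2 higher of 29, against 4.06% of all genes lower and 5.4% higher. Whether this differs from the ISC-like cells was not tested. Cluster 20, with Fosb among its leading genes, held 193 of 1464 and 129 of 2318 Goblet/Paneth-like cells without EIPA. With EIPA it held 86 of 1506 and 96 of 2400, and its part in the immediate early calls was not tested. In proliferating cells the edgeR fit with the EIPA term called 3305 of 13895 genes (23.8%), the highest share of any class in that fit. Most were small steps (a median size of 0.31 on the log2 scale). Far fewer genes were called in proliferating cells with DESeq2 or without the EIPA term, as given at the end. Clu there had 2.37 and 30.8 and then 8.04 and 53.6 CPM, S100a6 190 and 818 and then 328 and 1245 CPM, and Pfkl 121 and 56.6 and then 101 and 55.9 CPM. Different clusters held the proliferating cells of the treatments, with cluster 1 holding 16.0% and 17.1% of the -EIPA cells and 2.34% and 0.83% of the +EIPA cells, and cluster 4 1.68% and 0.32% against 16.0% and 15.5%. Since clustering left out the genes called between experiments, it cannot show whether clusters also split by experiment. With those genes kept, a cluster of 2870 cells named ISC held 91.7% cells of +EIPA experiment 2.

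**Figure D4:**
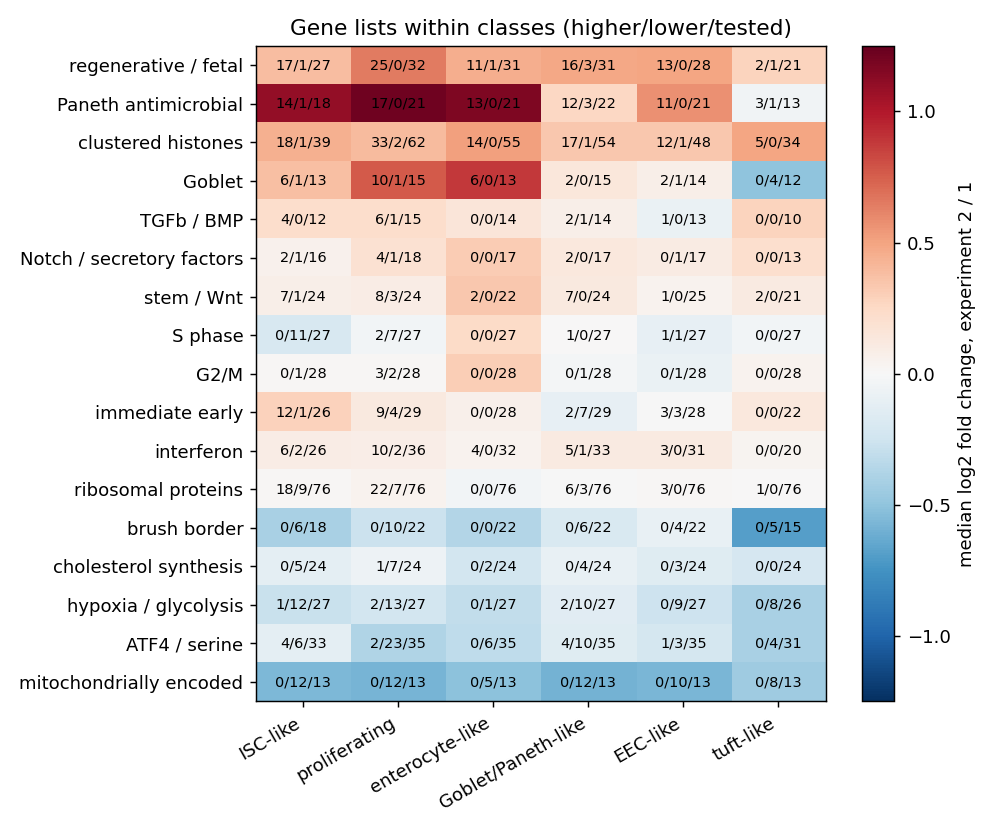
The colour of each cell is the median log2 fold change (experiment 2 over 1) of a gene list within a class of cells, and the numbers are members higher, lower and tested. The regenerative list is above 0 and the mitochondrially encoded, ATF4 and glycolysis lists are below 0 in all 6 classes, whereas the immediate early list is called mostly higher in ISC-like (12/1/26) and mostly lower in Goblet/Paneth-like cells (2/7/29).

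Afp, alpha-fetoprotein, a plasma protein of the fetal liver and yolk sac, had the largest decrease among the 15 lower genes named over all cells. Its level was 22.1 and 1.89 CPM in the -EIPA and 30.3 and 1.47 CPM in the +EIPA libraries (-3.91 ± 0.19, adjusted p = 0.0022). Most of it, 84.0% of its UMIs, came from cluster 18, an EEC cluster led by Chgb, Chga, Tac1 and Tph1, which mark serotonin-making enterochromaffin cells. Within EEC-like cells 691 of 12352 genes were called (5.59%), and far fewer with DESeq2 or without the EIPA term, as given at the end. Afp had 690 and 26.8 and then 613 and 24.8 CPM in these cells (-4.64 ± 0.13). Other genes of the same class were lower with it. Cartpt, a neuropeptide, had 29.2 and 0.92 and then 20.4 and 4.44 CPM (-3.30 ± 0.23), Scg3, a granin of secretory granules, 50.9 and 10.1 and then 45.3 and 10.4 CPM (-2.21 ± 0.16), and Alb, albumin, 32.1 and 4.53 and then 19.8 and 6.46 CPM (-2.22 ± 0.20). Chgb was lower by a smaller step, at 14898 and 8638 and 13740 and 9440 CPM (-0.64 ± 0.14), as were Reg4, Tph1 and Tac1. Sst, somatostatin of D cells, was higher, at 318 and 474 and then 472 and 736 CPM (0.63 ± 0.11), and the hormones Gip, Cck, Gcg and Ghrl did not pass. The make-up of the class moved too. Cluster 18 held 164 of 500 and 344 of 1199 EEC-like cells without EIPA, and 264 of 789 and 199 of 731 with EIPA. Cluster 19, with Sst among its leading genes, held 118 and 337 and then 188 and 220 of these cells. The part of this shift in the steps within the class was not tested. The barcodes with few genes had Afp at 41.9 and 2.19 and then 18.1 and 0.96 CPM, and its low levels in most other clusters cannot be told apart from RNA carried over.

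Summed over all cells, the EEC list told little about the experiments, because 22 of its 27 members had opposite signs without and with EIPA. Their median log2 ratio was 0.74 without and -0.19 with EIPA, and -0.07 and 0.07 with the clusters weighted alike. Only Scg3 was called, as lower.

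Few enterocyte genes passed over all cells, although most had lower CPM in experiment 2. Of 22 brush border genes 15 had lower CPM in both treatments. The list's median log2 fold change was -0.44, and 3 members passed (13.6%), namely Slc6a19, Mgam and Myo1a. Among all genes 8.11% passed in either direction, 3.22% as lower and 4.88% as higher. The list's median log2 ratio was -0.84 without but -0.12 with EIPA, and -0.72 and -0.10 with the clusters weighted alike. Mgam, a starch-digesting enzyme, had 192 and 114 and then 252 and 187 CPM (-0.55 ± 0.10). Apolipoprotein and fat transport genes had a median of -0.36 with 0 of 20 called. Within enterocyte-like cells 392 of 12622 genes were called (3.11%), 0 of the 22 brush border genes among them. Fewer were called in this class with DESeq2 or without the EIPA term, as given at the end. The genes named as lower there were Naaladl1, Dhrs11, Slc16a6, Tmem37 and Hcn3, and those named as higher were Gm3839, Defa17, Gm49980, Clu and Rnaset2a. Dhrs11, a dehydrogenase of steroids and retinoids, had 117 and 35.6 and then 113 and 37.5 CPM (-1.66 ± 0.13), Naaladl1, a brush border peptidase, 27.3 and 7.17 and then 35.9 and 12.1 CPM (-1.73 ± 0.15), and Pklr, the liver-type pyruvate kinase, which was named over all cells, 153 and 62.5 and then 168.5 and 118 CPM (-0.90 ± 0.17). Isx, which represses vitamin A uptake, was lower over all cells, at 93.1 and 53.9 and then 78.9 and 48.8 CPM (-0.70 ± 0.06), as was the retinal reductase Dhrs3 (-0.74 ± 0.09).

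Of 15 Goblet genes tested, 4 were higher (26.7%, against 4.88% of all genes), 0 lower and 11 did not pass. The 4 were Spink4, Spdef, Creb3l4 and Agr2, a disulfide isomerase of mucin folding, at 484 and 617 and then 537 and 742 CPM. Muc2, the main gel-forming mucin, did not pass, at 85.1 and 92.6 and then 95.2 and 195 CPM. The list's median log2 ratio was 0.12 without and 0.72 with EIPA, and -0.22 and 0.29 with the clusters weighted alike, and 5 of the 15 had opposite signs in the treatments. Within Goblet/Paneth-like cells 2 of 15 Goblet genes were higher, where 5.4% of all genes were. Of 20 tuft genes, 2 (Ltc4s and Rgs13) were higher over all cells, where 4.88% of all genes were. Within tuft-like cells, where 161 of 9736 genes were called (1.65%), Dclk1, the kinase that marks tuft cells, was lower, at 843 and 437 and then 677 and 554 CPM (-0.63 ± 0.14). Alox5, which makes leukotrienes, Rac2 and Ptprc, which encodes the pan-leukocyte antigen CD45 and is also known in tuft cells, were lower with it, Ptprc at 35.7 and 6.67 and then 35.9 and 18.5 CPM (-1.59 ± 0.28). The 161 calls in this class became 19 with likely doublets removed, 19 with DESeq2 and 1344 with classes from marker scores.

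A few immune-linked genes differed by large folds. Ifitm3, an interferon-induced protein that blocks virus entry, had 0.49 and 9.23 CPM without and 0.47 and 8.50 CPM with EIPA (4.25 ± 0.10), and 149 CPM in the CRISPR-Cas9 library without Dox. Of 46 interferon genes 5 were higher (10.9%, against 4.88% of all genes) and 1 lower, with a median of 0.11, and in ISC-like cells 6 of 26 were higher, against 7.44%. The major histocompatibility gene H2-Q10 had 9.02 and 25.01 and then 9.07 and 25.01 CPM (1.51 ± 0.05), and 0.06 CPM in that CRISPR-Cas9 library. Of 28 antigen presentation genes 5 were higher (17.9%, against 4.88% of all genes) and 0 lower. Stc2, given above, was at 0 in the library without Dox, which is therefore not a further sample of the same kind. Heat shock genes, which encode chaperones, had 3 of 17 members higher (17.6%, against 4.88% of all genes), Hspe1 the most abundant at 807 and 1228 and then 748 and 1002 CPM (0.56 ± 0.06).

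By a rule on size, level and direction in both treatments, 90 genes were eligible as higher and 29 as lower, and the 15 largest in each direction were named. Of the 15 higher genes, 14 were called in all 6 classes, the exception being Anxa1, which was not called in tuft-like cells. Each of the 15 had higher CPM in 24 of 24 clusters in either treatment. The genes were picked for 1 direction in both treatments and the clusters divide the same libraries, so this is no independent support. Low levels outside a gene's main cluster can be RNA carried over from other cells, and barcodes with few genes showed the same order for Defa17 and Afp. Of the 15 lower genes, 9 were called in all 6 classes, Afp, Dhrs11, Pfkl, Pklr, Anxa11, Gm42418 and 3 mitochondrial transcripts.

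The make-up of the organoids differed as well. ISC-like cells were 6.58% and 10.5% of cells without EIPA and 3.19% and 5.15% with EIPA. Enterocyte-like cells went the other way, at 18.7% and 12.7% and then 22.8% and 20.5%, and proliferating cells were 42.3% and 38.6% and then 39.7% and 37.8%. Goblet/Paneth-like cells were 11.6% and 12.7% without EIPA and 11.4% and 16.8% with EIPA, and tuft-like cells 1.49% and 2.31% and then 1.45% and 1.94%. The direction was the same in both treatments for 5 of 6 classes, and EEC-like cells were the exception, at 3.97% and 6.58% and then 5.98% and 5.13%. With 2 libraries per experiment an exact permutation test within treatments cannot fall under 0.05, so the shares are a description, and their binomial intervals cover counting error only. The shares depended on how classes were made. By marker score ISC-like cells were 18.8% and 26.1% without and 17.6% and 18.1% with EIPA, and with the differing genes kept for clustering 3.90% and 8.72% and then 2.13% and 18.8%. Of the ISC-like cells of +EIPA experiment 2 in that last clustering, 2632 lay in 1 cluster made up to 91.7% of that library, while the ISC cluster with Lgr5 among its leading genes held 113 and 42 cells with EIPA. By marker score the tuft-like shares turned, to 5.96% and 5.83% without and 5.13% and 4.01% with EIPA. Cells in unnamed clusters were 15.3% and 16.6% and then 15.5% and 12.7%.

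**Figure D5:**
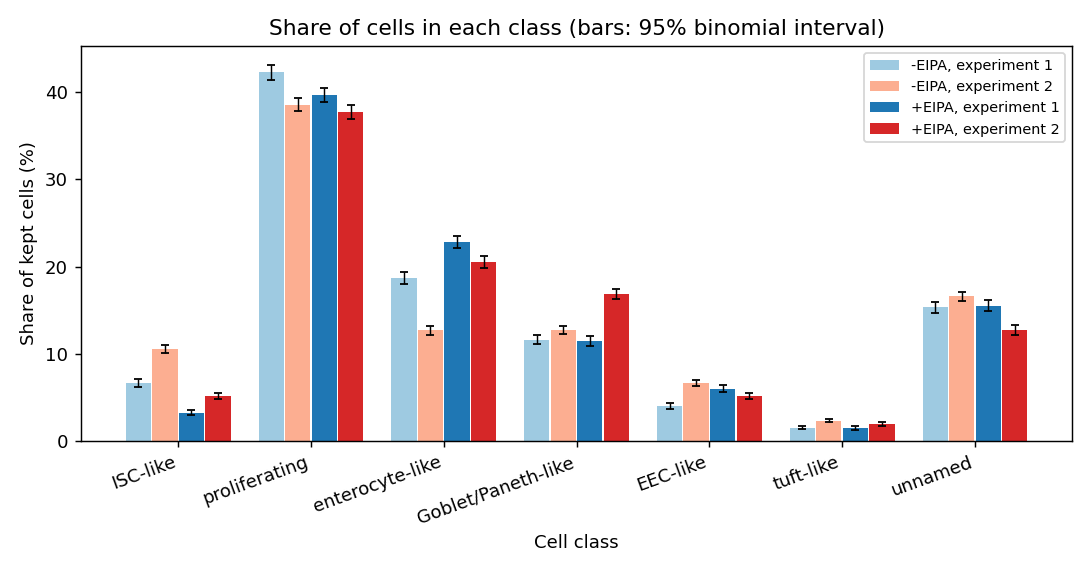
Bars give the percent of kept cells in each class for the 4 WT libraries, light for -EIPA and dark for +EIPA, blue for experiment 1 and red for experiment 2. Error bars are exact 95% binomial intervals, which cover counting error only. ISC-like and tuft-like bars are higher and enterocyte-like and proliferating bars lower in experiment 2 in both treatments, whereas EEC-like bars go from 3.97% to 6.58% without EIPA and from 5.98% to 5.13% with EIPA.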

How the data were processed

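Counts were the only unit used. The authors aligned the reads to mm10 and counted UMIs with Cell Ranger 6.1.2, per the submitters' processing notes, and deposited raw counts for barcodes called as cells, with no limits on cells and no removal of doublets or ambient RNA. The read length of 91 bases is from the methods. Libraries were grouped by the replicate number in their labels, and the study's text calls these independent experiments.

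Cells with 1000 or more genes and under 20% mt- UMIs were kept. Counts were summed per library and class and fitted in R 4.3.3 with edgeR 4.0.16 (TMM, filterByExpr, EIPA and experiment as terms). The SE is the log2 fold change over the square root of F. Log2 ratios use CPM + 0.1. DESeq2 1.42.0 was an alternative. The fits were also run on simulated counts. These were drawn with the same spread for all genes and no EIPA effect, so they do not measure the error of the fits in these data.

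Cells were clustered in Python 3.11.15 with igraph 0.11.9, scikit-learn 1.9.0, numpy 2.4.6 and scipy 1.17.1 (3000 genes, Pearson residuals per library, Leiden), without genes called between experiments. This gave 24 clusters, 15.1% of cells unnamed, and 53.4% of neighbours from the same library. Clusters were named from markers by a rule of an earlier analysis. Ratios with clusters weighted alike use each cluster's mean share of UMIs over the 4 libraries. Doublets were kept. Scrublet's automatic threshold (scanpy 1.11.5) marked 6, 1531, 0 and 1667 cells, so the 10% of cells with the highest score per library were removed in an alternative, chosen after seeing the data.

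Named genes have an adjusted p under 0.05, a mean of 10 CPM or more and a log2 ratio of at least 0.5 in the same direction in both treatments, the 15 largest per direction over all cells and 5 per class. Other genes are list members. The members and lists were chosen with earlier results of these data known. Gene positions, transcripts and coding sequences are from GENCODE M21 (GRCm38). Some results are not reported here.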

Additional observations from a re-analysis of the deposited data

Results flagged for a closer look

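These values had opposite signs in the 2 treatments. Each rests on 1 library per experiment and treatment, the difference was not tested, and no explanation was weighed. The EEC-like share was 2.618 percentage points higher in experiment 2 without EIPA and lower with EIPA, a difference of -0.854 points. On the log2 scale, the ratio of shares, experiment 2 to 1, was 1.623 without and -1.190 with EIPA for cluster 11, which stayed unnamed, had 0.30 times its libraries' median UMIs and was led by Kcnq1ot1 and mitochondrial transcripts. It was 0.538 and -0.520 for cluster 18, the EEC cluster that held most of Afp, and -1.386 and 0.507 for cluster 23, 130 enterocyte-like cells led by Ctrb1 and Reg1.

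Among single genes over all cells, the log2 ratio of CPM was 0.676 and -0.575 for Chga, a granin of EECs, 1.173 and -0.477 for Gcg, the precursor of GLP-1, and 1.176 and -1.177 for Ghrl, ghrelin. It was -0.559 and 0.774 for Zg16, a Goblet lectin, and -0.491 and 0.614 for Leap2, an enterocyte peptide that opposes ghrelin at its receptor.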

How the results depend on the processing

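No paired analysis was possible because the replicate number that would form the pairs is itself the factor compared. Libraries were matched by treatment instead, through the EIPA term. With the experiment as the only term, calls over all cells fell from 1288 to 59, and to 348 in ISC-like, 198 in EEC-like, 100 in Goblet/Paneth-like, 467 in proliferating, 25 in tuft-like and 16 in enterocyte-like cells. Fits without 1 library, which also lack the EIPA term, called 0 to 76 genes over all cells, 71 to 657 in ISC-like, 1 to 519 in EEC-like, 58 to 140 in Goblet/Paneth-like, 94 to 212 in proliferating, 23 to 75 in tuft-like and 0 to 108 in enterocyte-like cells. Over all cells, 0 regenerative members were called in the fit without the EIPA term, against 21 to 25 in all-cell fits with the term. Of the 30 named genes, which were chosen for 1 direction in both treatments, 10 passed without the EIPA term, 0 without either experiment 1 library and 18 without either experiment 2 library.

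DESeq2 called 2715 genes over all cells, 223 in ISC-like, 128 in EEC-like, 249 in Goblet/Paneth-like, 1331 in proliferating, 19 in tuft-like and 184 in enterocyte-like cells. Without a filter on low counts 2557 genes were called over all cells. Classes from marker scores gave 1344 calls in tuft-like, 414 in EEC-like, 2573 in ISC-like and 1875 in Goblet/Paneth-like cells, and turned the tuft-like share difference to -0.139 points without and -1.120 with EIPA. Clustering with the differing genes gave 1972 calls in proliferating and 89 in tuft-like cells. Without doublets there were 782 calls in Goblet/Paneth-like and 19 in tuft-like cells. The cause of these shifts was not tested. With genes at 100 CPM or more the experiment took 43.5% and EIPA 49.7% of the sum of squares.

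With 1 residual degree of freedom, the adjusted p-values describe these 4 libraries and not organoid preparations in general.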
